A study of Mus musculus with 6 samples.

Results

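Chaperones are proteins that help other proteins fold, keep unfolded chains from clumping and hand damaged ones over for removal. The genes described here are the 49 whose symbols begin with the names of the heat shock proteins (Hspa, Hspb, Hspd, Hspe, Hsph, Hsp90), the J-domain proteins (Dnaja, Dnajb, Dnajc), the CCT chaperonin, the BAG factors, the FKBP prolyl isomerases or the PDIA disulphide isomerases. They were picked by symbol alone from a table of 8468 genes. RefSeq has 108 protein-coding mouse symbols of this form, and those outside the table are not analysed here.

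RNA was sequenced from CD3+ T cells of the mouse spleen after haematopoietic stem cell transplantation (HSCT), the transfer of blood-forming cells into a host. Every host was a Balb/c mouse. The 3 syn-HSCT libraries came from hosts given Balb/c donor cells, and the 3 allo-HSCT libraries from hosts given C57BL/6 donor cells, whose tissue antigens differ from those of the host. Donor strain and type of transplant changed together, so that their parts in any difference cannot be told apart. The labels give no age, no time after transplantation and no word on whether each library is a separate animal, and each p-value reflects no more than how far these libraries spread.

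Cells keep separate chaperone sets in the cytosol, the endoplasmic reticulum (ER) and the mitochondrion. HSP70 proteins bind exposed stretches of unfolded chains, J-domain proteins bring them their clients, nucleotide exchange factors such as HSP110 and BAG proteins release them, and HSP90 finishes the folding of signalling proteins. In lymphocytes the heat shock genes answer to heat and other protein damage through the transcription factor HSF1, whereas the ER set answers to unfolded secretory proteins through ATF6 and XBP1.

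Values are FPKM, reads scaled to gene length and to the total of the library, so levels can be compared between genes. Library totals were 15642385 to 17524496 reads, and the 49 genes had a median of 381.5 reads per gene and library. Of the 49, 40 reached 1 FPKM in at least 3 libraries and were tested. Among these 40, 23 were lower and 16 higher in allo-HSCT at an adjusted p under 0.05 (limma, adjusted over all tested genes), and 1 did not pass. The FPKM ranges of the 2 groups did not overlap in 39 of the 40, where 91% of all tested genes had no overlap. These 39 calls have to be read against the table, in which 93.7% of all 5460 tested genes passed, 45.8% as lower and 47.9% as higher. Genes with little or no difference are missing from the table. Of its 4825 genes with over 100 reads per library on average, none had a log2 ratio of group means between -0.37 and 0.21. The direction and size of each change therefore carry more than the count of calls does. A log2 fold change of -1 or below was reached by 5 of the 40 (7.91% of all tested genes), namely Fkbp1b, Hspa1a, Pdia5, Pdia6 and Hspa1b, and one of 1 or above by 0 of them (3.74% of all tested genes). These values are on the log2(FPKM + 1) scale, which shrinks the changes of low genes. By the ratio of mean FPKM, Dnajb13 was 2.44-fold and Dnajc15 2.01-fold higher. By the same ratio Dnajc6 was 2.52-fold and Fkbp9 2.13-fold lower, so these counts depend on the scale. The median log2 fold change was -0.41 over the 40 chaperone genes and 0.20 over all tested genes. With small changes missing, the median of a set with both directions turns on which direction holds more genes. The distance between 2 such medians, here or below, is not the size of a typical shift. Summed over the 49 genes, the level was 2021 to 2085 FPKM in syn-HSCT and 1378 to 1612 FPKM in allo-HSCT.

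Other cells were present in the isolates and moved with the groups. Of 10 T cell markers 7 were in the table. All 7 were higher in allo-HSCT, with summed levels of 636 to 679 FPKM in syn-HSCT and 1144 to 1332 FPKM in allo-HSCT. All 5 granulocyte precursor markers were lower, with sums of 1317 to 1345 FPKM and 266 to 304 FPKM. Of 13 macrophage and monocyte markers 9 were in the table. Of these, 8 were lower and 1 higher, with sums of 1866 to 2455 FPKM and 565 to 792 FPKM. Of 5 tested dendritic cell markers, 4 were lower and 1 higher (sums of 29.7 to 31.2 FPKM and 7.81 to 10.002 FPKM over 6 genes), and of 7 erythroid markers 4 were higher and 1 lower (252 to 289 FPKM and 353 to 441 FPKM). The 3 tested B cell markers were higher, at sums over 5 genes of 8.54 to 9.41 FPKM and 14.8 to 16.2 FPKM. A further list held genes that can rise when cells are dissociated, such as Fos, Jun and Egr1. Of its 10 genes 9 were in the table, and all 9 were lower in allo-HSCT (2521 to 2629 FPKM and 1274 to 1544 FPKM). The list cannot tell handling from other stimuli of the cells. In whole isolates a smaller share of one cell type and less RNA per cell of that type cannot be told apart, and the part of these cells or of handling in the chaperone results was not tested. Allo-HSCT replicate 1 stood nearest to the syn-HSCT mean in 15 of the 23 lower and in 10 of the 16 higher chaperone genes.

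**Figure D1:**
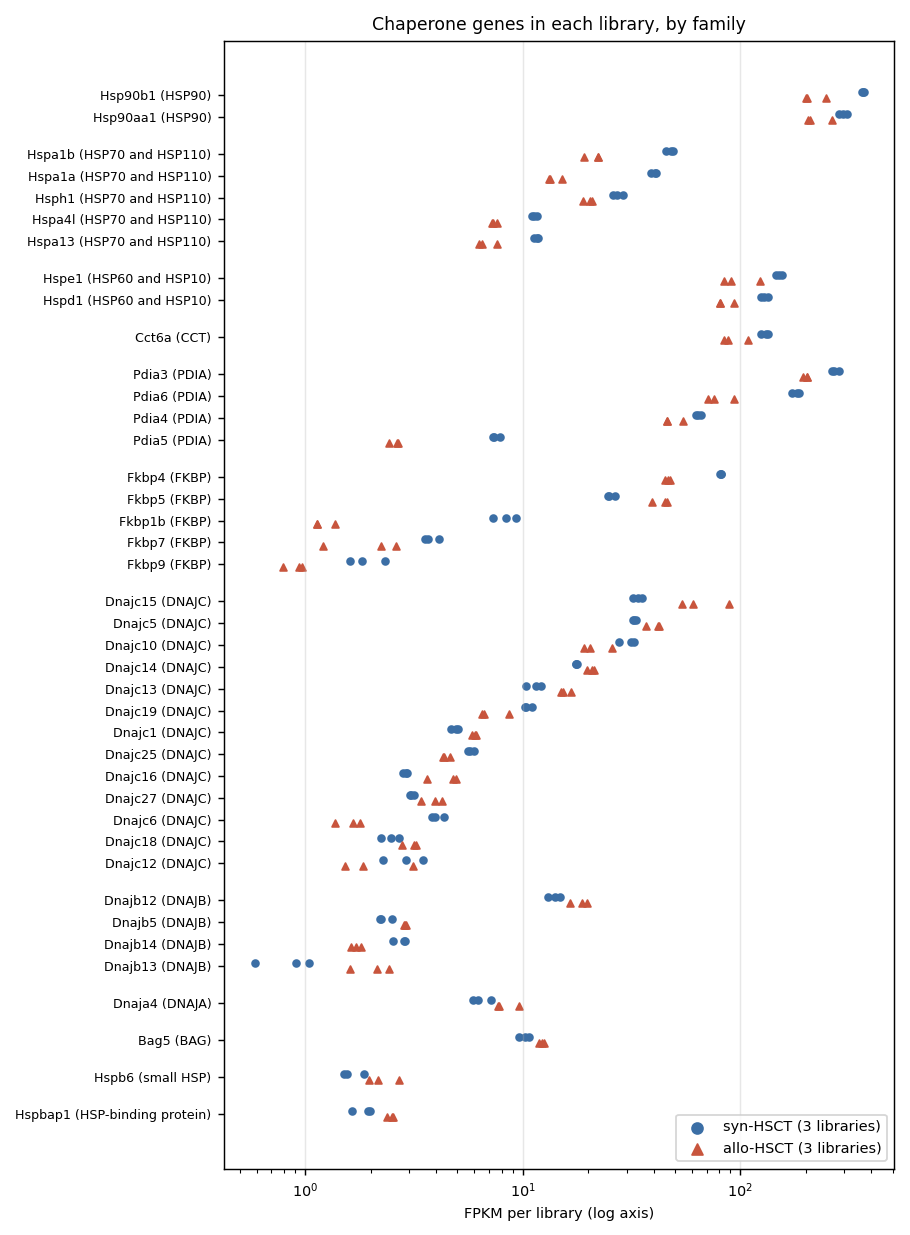
FPKM of the 40 tested chaperone genes in each library (log axis), grouped by family, with circles for syn-HSCT and triangles for allo-HSCT. The groups do not overlap in 39 genes, and in Dnajc12 they do.

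Promoter sequences show which of the genes carry the short motifs bound by the heat shock and ER stress factors. RefSeq (GRCm38.p6) promoters were found for 44 of the 49 genes, and the 250 bases before each gene start were searched. A heat shock element was taken as GAANNTTC or TTCNNGAA, both of which read the same on either strand and can overlap one another. The ER stress element was searched on both strands as CCAAT and CCACG with 9 bases of any kind between them, and the cyclic AMP response element (CRE) as TGACGTCA, which also reads the same on both strands. The 7 promoters below were picked from the genes that fell in allo-HSCT and hold a match, which is capitalised. It is a heat shock element in the first 5 and an ER stress element in Hsp90b1 and Pdia6. Hspd1, Fkbp7 and Dnajc10 also fell and hold a heat shock element, and are not printed. Each is written from 5′ to 3′ on the strand of its gene.
Hspa1a, chr17:34972157-34972406, minus strand: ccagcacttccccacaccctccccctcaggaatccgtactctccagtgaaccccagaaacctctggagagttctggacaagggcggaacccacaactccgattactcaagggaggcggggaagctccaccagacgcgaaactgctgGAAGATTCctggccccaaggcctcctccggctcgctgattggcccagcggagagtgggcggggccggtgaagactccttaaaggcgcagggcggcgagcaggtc
Hspa1b, chr17:34959239-34959488, minus strand: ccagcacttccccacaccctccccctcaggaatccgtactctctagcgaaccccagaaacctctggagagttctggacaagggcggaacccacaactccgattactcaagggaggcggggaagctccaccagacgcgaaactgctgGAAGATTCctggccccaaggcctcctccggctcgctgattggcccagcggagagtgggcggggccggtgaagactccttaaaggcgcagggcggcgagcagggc
Hspe1, chr1:55087898-55088147, plus strand: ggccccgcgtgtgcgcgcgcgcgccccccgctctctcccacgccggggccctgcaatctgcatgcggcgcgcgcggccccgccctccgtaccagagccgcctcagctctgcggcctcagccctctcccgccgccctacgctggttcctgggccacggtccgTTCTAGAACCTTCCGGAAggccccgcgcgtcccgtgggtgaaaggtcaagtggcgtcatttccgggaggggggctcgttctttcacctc
Hsph1, chr5:149636337-149636586, minus strand: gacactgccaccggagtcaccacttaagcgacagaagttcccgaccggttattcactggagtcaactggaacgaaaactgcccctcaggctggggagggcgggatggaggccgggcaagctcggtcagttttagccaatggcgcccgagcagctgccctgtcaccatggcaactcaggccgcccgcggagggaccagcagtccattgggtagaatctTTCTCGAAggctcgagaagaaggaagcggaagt
Fkbp4, chr6:128438657-128438906, minus strand: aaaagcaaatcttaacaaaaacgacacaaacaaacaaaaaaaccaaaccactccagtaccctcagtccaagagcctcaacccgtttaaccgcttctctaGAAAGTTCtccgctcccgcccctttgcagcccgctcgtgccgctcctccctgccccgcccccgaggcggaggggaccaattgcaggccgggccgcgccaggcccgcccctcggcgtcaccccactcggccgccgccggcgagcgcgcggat
Hsp90b1, chr10:86705445-86705694, minus strand: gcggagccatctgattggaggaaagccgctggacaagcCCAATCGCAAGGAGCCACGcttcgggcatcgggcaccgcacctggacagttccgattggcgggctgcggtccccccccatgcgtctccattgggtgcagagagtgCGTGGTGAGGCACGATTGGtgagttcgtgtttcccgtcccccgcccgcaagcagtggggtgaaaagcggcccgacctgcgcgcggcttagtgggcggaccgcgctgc
Pdia6, chr12:17266339-17266588, plus strand: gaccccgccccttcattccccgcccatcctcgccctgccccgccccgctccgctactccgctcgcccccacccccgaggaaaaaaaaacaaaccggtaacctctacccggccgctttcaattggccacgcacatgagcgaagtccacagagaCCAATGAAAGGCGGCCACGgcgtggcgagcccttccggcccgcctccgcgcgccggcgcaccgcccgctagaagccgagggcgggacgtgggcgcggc

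The Hspa1a and Hspa1b promoters were 98.8% identical, with the same GAAGATTC match 104 bases before the start. In Hspe1 the 3 matches overlap in 1 run, and its 250-base window shares 215 bases, read on the opposite strand, with that of Hspd1. A heat shock element match was found in 12 of the 44 genes (27.3%). The share was 14.5% of all 27025 RefSeq genes with a promoter and 12.6% of the tested genes with one. It was found in 8 of the 21 genes lower in allo-HSCT that had a promoter and in 3 of the 14 higher ones. Both of these pairs, Hspa1a with Hspa1b and Hspe1 with Hspd1, are among the 8, which are thus not 8 separate sequences. The ER stress element was found in Hsp90b1, with 2 matches, and in Pdia6, beside 0.130% of all RefSeq genes. The CRE was found in Dnajc27 alone among the 44 (1.77% of all RefSeq genes). A match is a description of the letters and says nothing of whether a factor binds there.

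**Figure D2:**
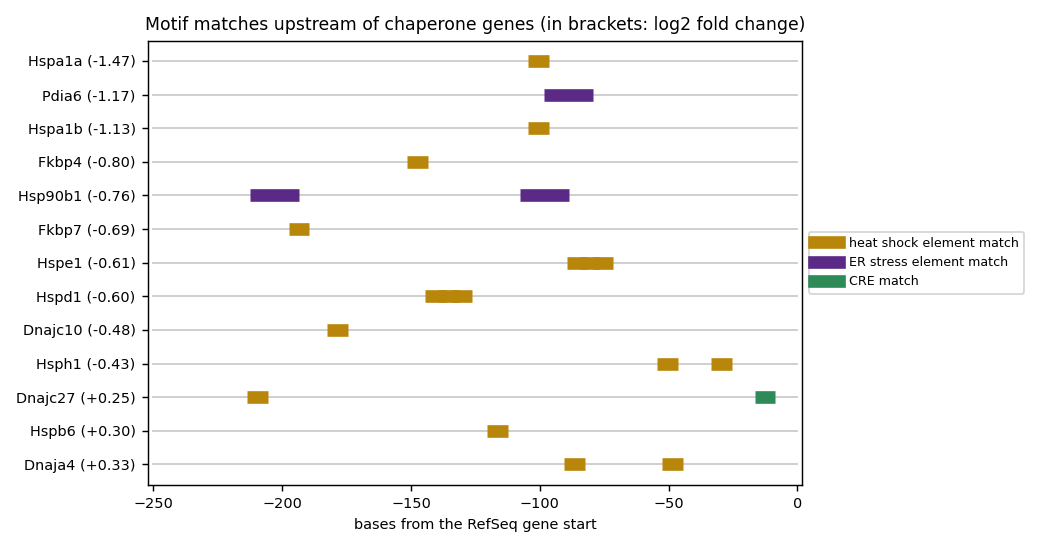
Positions of the motif matches in the 250 bases before the gene start for the 13 tested chaperone genes that hold one, in order of log2 fold change from Hspa1a (-1.47) to Dnaja4 (0.33). The 2 marks of Hsph1 are a single site counted from 2 annotated starts, and both ER stress element genes, Pdia6 and Hsp90b1, lie among the genes that fell.

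Of the HSP70 and HSP110 family, which bind unfolded chains or exchange the nucleotide of those that do, the 5 tested genes all fell in allo-HSCT (median log2 fold change -0.69). Of all tested genes in the table, 45.8% were lower. The sum over the 8 family genes in the table was 138 ± 0.890 FPKM (SD, n = 3) in syn-HSCT and 69.6 ± 2.42 FPKM (n = 3) in allo-HSCT. Other genes of the family, such as Hspa5 and Hspa8, are not in the table, so this is not the level of the whole family. Hspa1a, a stress-inducible cytosolic HSP70, stood at 38.8, 40.8 and 40.6 FPKM in syn-HSCT and at 13.3, 13.3 and 15.1 FPKM in allo-HSCT. All allo-HSCT libraries lay well below the lowest syn-HSCT library. The level was 2.88-fold lower (limma log2 fold change -1.47 with SE 0.0776, adjusted p = 2.12e-07). Hspa1b, its neighbouring copy with near-identical sequence, stood at 49.2, 48.0 and 45.5 FPKM in syn-HSCT and at 19.2, 22.1 and 22.2 FPKM in allo-HSCT, 2.24-fold lower (limma log2 fold change -1.13 with SE 0.0811, adjusted p = 1.48e-06). The groups did not overlap here either. Because reads can be split between such copies, their sum is the safer value, and it went from 87.6 ± 1.41 FPKM to 35.1 ± 2.46 FPKM, 2.50-fold lower.

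Hsph1, an HSP110 that serves HSP70 as exchange factor and is itself heat-inducible, changed less. It stood at 25.9, 27.1 and 28.7 FPKM in syn-HSCT and at 18.8, 20.9 and 20.3 FPKM in allo-HSCT (limma log2 fold change -0.43 with SE 0.0765, adjusted p = 6.05e-04). The 2 ranges were apart, by less than in the HSP70 pair. Hspa4l, another HSP110, fell 1.53-fold from 11.3 ± 0.265 to 7.38 ± 0.239 FPKM. Hspa13, an HSP70-like protein of the ER, fell 1.70-fold from 11.6 ± 0.254 to 6.79 ± 0.725 FPKM. The other 3 members of the family, Hspa12a, Hspa12b and Hspa1l, were below the limit for testing at no more than 0.271 FPKM and 34 reads in any library.

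The 2 HSP90 genes of the table had the highest levels of all 49 genes, and both fell. Hsp90b1, the HSP90 of the ER lumen (GRP94), which folds integrins and Toll-like receptors, stood at 367, 362 and 369 FPKM in syn-HSCT and at 246, 201 and 202 FPKM in allo-HSCT. The syn-HSCT libraries were within a few FPKM of each other, and allo-HSCT replicate 1 lay between them and the other 2. The level was 1.69-fold lower (limma log2 fold change -0.76 with SE 0.0941, adjusted p = 5.94e-05). Hsp90aa1, the stress-inducible cytosolic HSP90, stood at 296, 308 and 285 FPKM in syn-HSCT and at 263, 209 and 205 FPKM in allo-HSCT. Here too replicate 1 of allo-HSCT was the closest to syn-HSCT, without reaching its range. Its fall was smaller, 1.31-fold (limma log2 fold change -0.40 with SE 0.104, adjusted p = 0.00504). The ratio of Hsp90b1 to Hsp90aa1 was 1.24 ± 0.0619 in syn-HSCT and 0.962 ± 0.0255 in allo-HSCT (n = 3 each, exact two-sided permutation test p = 0.1, the smallest that 3 against 3 libraries can give).

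**Figure D3:**
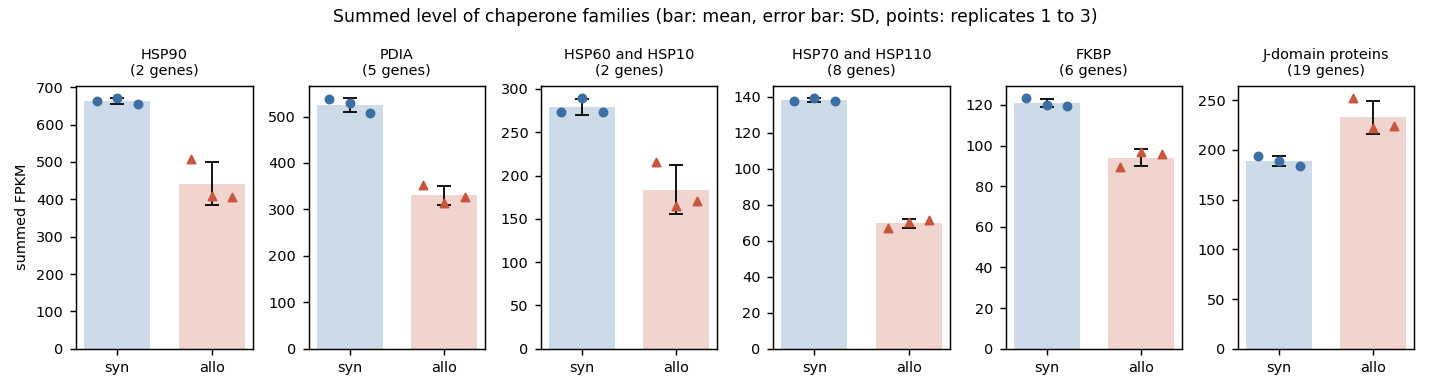
Summed FPKM of 6 chaperone families in each library, with bars for the mean, error bars for the SD and points for replicates 1 to 3 from left to right. Each sum holds only the genes of the family that are in the table, which lacks genes with little difference. All sums but that of the J-domain proteins were lower in every allo-HSCT library than in any syn-HSCT library, and the J-domain sum was higher (189 and 232 FPKM on average).

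The protein disulphide isomerases form and rearrange the disulphide bonds of secreted and surface proteins. All 4 tested PDIA genes fell (median log2 fold change -0.81), where 45.8% of all tested genes were lower. The sum of the 5 PDIA genes in the table went from 524 ± 14.98 to 331 ± 20.5 FPKM. Pdia6 stood at 182, 187 and 172 FPKM in syn-HSCT and at 93.3, 71.0 and 75.3 FPKM in allo-HSCT. Every allo-HSCT library was far below every syn-HSCT library, with replicate 1 the highest of the 3. It was 2.26-fold lower (limma log2 fold change -1.17 with SE 0.104, adjusted p = 6.16e-06). Pdia5, a low-level relative, stood at 7.82, 7.41 and 7.28 FPKM in syn-HSCT and at 2.42, 2.68 and 2.64 FPKM in allo-HSCT. The groups were far apart and the replicates of each close together. Its fall of 2.91-fold (limma log2 fold change -1.25 with SE 0.0758, adjusted p = 5.17e-07) rested on 74 to 235 reads per library. Pdia3 (ERp57), which works with the lectins calnexin and calreticulin and in the loading of MHC class I, fell 1.36-fold from 272 ± 10.98 to 199.6 ± 5.52 FPKM. Pdia4 (ERp72) fell 1.32-fold from 64.2 ± 1.90 to 48.7 ± 4.85 FPKM. Pdia2, a pancreatic isoform, had at most 4 reads in a library and was not tested.

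Sorted by compartment, 11 of the 15 tested ER genes fell and 4 rose (median log2 fold change -0.47). Of all tested genes, 45.8% were lower and 47.9% higher. The sum of the 17 ER genes in the table went from 971 ± 17.3 to 617 ± 48.3 FPKM. In the cytosol and nucleus, 9 of 17 tested genes fell and 8 rose. There the sum of the 21 genes in the table went from 739 ± 15.2 to 561 ± 32.7 FPKM. The ER genes divided by position, a split made after the values were seen and given as a description. The 9 that encode proteins of the lumen, Hsp90b1, Hspa13, Dnajc10, Fkbp7, Fkbp9 and 4 PDIA genes, were all lower, at a median log2 fold change of -0.69. Of the 6 that encode J-domain proteins with a membrane anchor, 4 rose (Dnajb12, Dnajc1, Dnajc16 and Dnajc18) and 2 fell (Dnajb14 and Dnajc25). Dnajc10 (ERdj5), a J-domain protein with reductase activity, stood at 32.6, 31.3 and 27.8 FPKM in syn-HSCT and at 25.8, 19.1 and 20.4 FPKM in allo-HSCT (limma log2 fold change -0.48 with SE 0.113, adjusted p = 0.00283). The groups were separate, with allo-HSCT replicate 1 just below the lowest syn-HSCT library. Plasma cells have a large ER. Of their 4 tested markers, 3 were higher in allo-HSCT and Xbp1 was lower, with a list sum of 228 to 240 FPKM in syn-HSCT and 264 to 348 FPKM in allo-HSCT, and their part in the ER result was not tested.

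**Figure D4:**
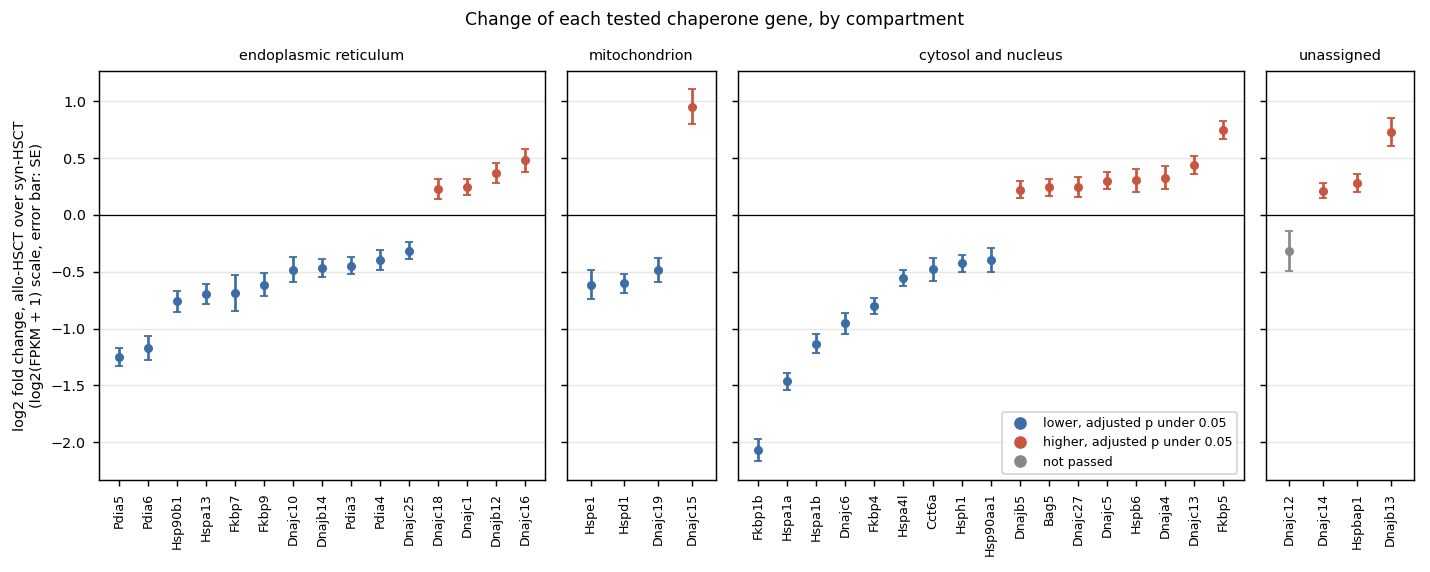
Log2 fold change of allo-HSCT over syn-HSCT for the 40 tested chaperone genes, with error bars for the SE, in 4 panels by compartment. The ER panel runs from Pdia5 (-1.25) to Dnajc16 (0.48), and the mitochondrial panel holds 3 genes below 0 and Dnajc15 at 0.95.

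Mitochondria fold their imported proteins in the HSP60 cage, closed by the HSP10 lid. Hspd1, which encodes HSP60, stood at 128, 134 and 124 FPKM in syn-HSCT and at 93.2, 80.5 and 80.6 FPKM in allo-HSCT (limma log2 fold change -0.60 with SE 0.0834, adjusted p = 1.28e-04). Hspe1, which encodes HSP10 and lies head to head with Hspd1 across the shared promoter printed above, stood at 145, 155 and 149.9 FPKM in syn-HSCT and at 123, 83.8 and 90.5 FPKM in allo-HSCT (limma log2 fold change -0.61 with SE 0.127, adjusted p = 0.00139). Neither gene overlapped between the groups, and both means were 1.52-fold lower in allo-HSCT. The ratio of Hspe1 to Hspd1 was 1.17 ± 0.0383 in syn-HSCT and 1.16 ± 0.140 in allo-HSCT, a difference within the spread of the replicates (exact two-sided permutation test p = 0.9, n = 3 each). Over the 4 mitochondrial genes, replicate 1 of allo-HSCT exceeded the mean of replicates 2 and 3 by 0.42 (median, log2 scale).

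The 2 mitochondrial J-domain genes went in opposite directions. Dnajc19, part of the motor that pulls proteins through the inner membrane, stood at 10.98, 10.2 and 10.4 FPKM in syn-HSCT and at 8.64, 6.53 and 6.65 FPKM in allo-HSCT, a fall of 1.45-fold (limma log2 fold change -0.49 with SE 0.103, adjusted p = 0.00161). Dnajc15 (MCJ), an inner membrane protein known in mouse T cells to restrain complex I of the respiratory chain, stood at 35.3, 32.1 and 33.7 FPKM in syn-HSCT and at 88.7, 54.2 and 60.4 FPKM in allo-HSCT. Allo-HSCT was higher in all libraries, and replicate 1 was far above the other 2. The rise was 2.01-fold (limma log2 fold change 0.95 with SE 0.154, adjusted p = 3.20e-04), and without allo-HSCT replicate 1 the log2 fold change was 0.75. The ratio of Dnajc15 to Dnajc19 was 3.21 ± 0.0525 in syn-HSCT and 9.22 ± 0.987 in allo-HSCT (exact two-sided permutation test p = 0.1, n = 3 each). Since Dnajc15 rose and Dnajc19 fell without overlap, their ratio had to separate the groups. Its p-value was thus fixed by the single genes and adds nothing to them.

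The FKBP proteins isomerise proline bonds and bind the drugs FK506 and rapamycin, and some of them ride on HSP90. Of 5 tested genes 4 fell and Fkbp5 rose, where 45.8% of all tested genes were lower and 47.9% higher. Fkbp4 (FKBP52), which helps HSP90 deliver steroid receptors to the nucleus, stood at 80.8, 81.5 and 81.7 FPKM in syn-HSCT and at 44.9, 46.4 and 47.4 FPKM in allo-HSCT. Within each group the libraries differed by less than 3 FPKM, and the groups lay far apart. Its fall was 1.76-fold (limma log2 fold change -0.80 with SE 0.0675, adjusted p = 4.44e-06). Fkbp5 (FKBP51), which hinders the same receptors and is itself induced by glucocorticoids, stood at 26.6, 24.7 and 24.9 FPKM in syn-HSCT and at 39.3, 46.1 and 45.1 FPKM in allo-HSCT. No allo-HSCT library reached down to the syn-HSCT range. It rose 1.71-fold (limma log2 fold change 0.75 with SE 0.0825, adjusted p = 2.78e-05). The ratio of Fkbp5 to Fkbp4 was 0.313 ± 0.0147 in syn-HSCT and 0.939 ± 0.0604 in allo-HSCT (exact two-sided permutation test p = 0.1, n = 3 each). Here too the opposite changes without overlap fixed the p-value, which adds nothing to the single genes.

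**Figure D5:**
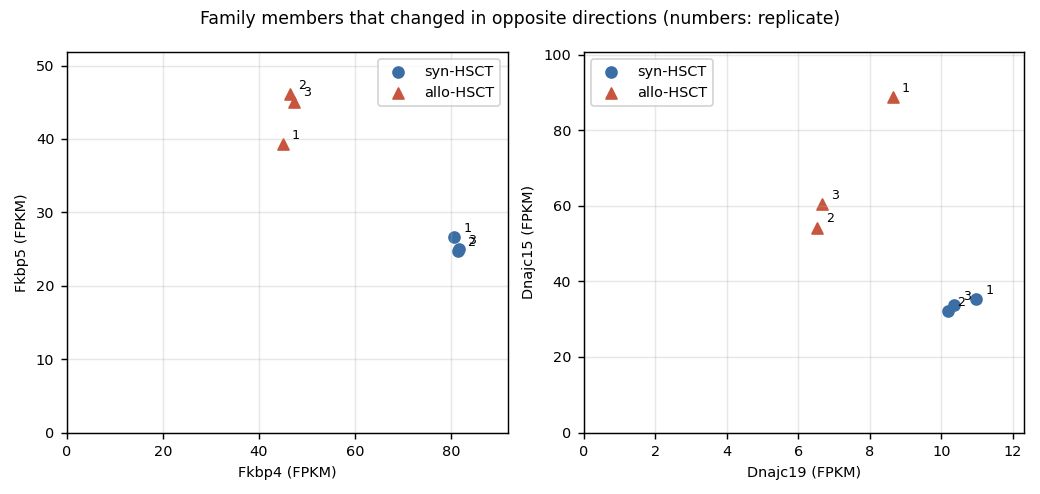
FPKM of Fkbp5 against Fkbp4 (left) and of Dnajc15 against Dnajc19 (right) in each library, with the replicate number beside each point. In both panels the allo-HSCT libraries lie higher on the vertical axis and lower on the horizontal one, and allo-HSCT replicate 1 stands apart in Dnajc15 at 88.7 FPKM.

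Fkbp1b (FKBP12.6), which binds the calcium release channels of the ER, had the largest change of the 40 tested genes. It stood at 9.35, 8.36 and 7.29 FPKM in syn-HSCT and at 1.37, 1.14 and 1.14 FPKM in allo-HSCT. The lowest syn-HSCT library was several times the highest allo-HSCT library. The fall was 6.86-fold (limma log2 fold change -2.07 with SE 0.0978, adjusted p = 1.08e-07), on 123 to 166 reads per syn-HSCT library and 20 to 25 per allo-HSCT library. Fkbp7 and Fkbp9, lumenal isomerases of the ER, fell 1.87-fold and 2.13-fold at low levels, from 3.78 ± 0.312 to 2.03 ± 0.733 FPKM and from 1.92 ± 0.375 to 0.902 ± 0.0947 FPKM. Fkbp14 was below the limit for testing, at 4 to 16 reads.

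J-domain proteins choose the clients of HSP70. Those in the table rose more often than the other chaperone genes there. Of 18 tested genes 12 rose, 5 fell and 1 did not pass (median log2 fold change 0.24), whereas of the 22 other chaperone genes 4 rose and 18 fell (median -0.61). No test was made between these sets. Among genes with over 100 reads, the table lacks log2 ratios of group means between -0.37 and 0.21. Small rises are thus listed where falls of the same size are not, which raises the count of rises against that of falls. The share that rose among the J-domain genes can be set beside the 47.9% of all tested genes that were higher. Over the 19 J-domain genes of the table the summed level was 184 to 193 FPKM in syn-HSCT and 222 to 252 FPKM in allo-HSCT. Most of that rise lay in Dnajc15.

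Apart from Dnajc15 and the low-level Dnajb13, the rises of J-domain genes were at most 1.55-fold. Dnajc13 (RME-8), which works with HSP70 on endosomes, stood at 12.1, 11.4 and 10.4 FPKM in syn-HSCT and at 15.03, 16.7 and 15.3 FPKM in allo-HSCT (limma log2 fold change 0.44 with SE 0.0826, adjusted p = 7.95e-04). Dnajc5 (cysteine string protein), which keeps the vesicle fusion protein SNAP25 folded in neurons, went from 32.5 ± 0.504 to 40.4 ± 2.99 FPKM. Neither gene overlapped between the groups. Among the membrane-anchored ER proteins, Dnajc16 stood at 2.80, 2.91 and 2.95 FPKM in syn-HSCT and at 3.64, 4.94 and 4.80 FPKM in allo-HSCT (limma log2 fold change 0.48 with SE 0.102, adjusted p = 0.00159). Dnajb12, which serves the removal of misfolded membrane proteins, rose 1.31-fold from 13.99 ± 0.917 to 18.4 ± 1.65 FPKM, while its close relative Dnajb14 fell 1.60-fold from 2.75 ± 0.179 to 1.71 ± 0.0909 FPKM. Both pairs of groups were separate, in opposite order.

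Dnajb13, known as a part of the sperm axoneme, was low, at 0.905, 1.05 and 0.586 FPKM in syn-HSCT and at 2.44, 2.14 and 1.61 FPKM in allo-HSCT. The groups were apart, on 8 to 36 reads per library (limma log2 fold change 0.73 with SE 0.124, adjusted p = 4.30e-04). The remaining 6 that rose, Dnaja4, Dnajb5, Dnajc1, Dnajc14, Dnajc18 and Dnajc27, had log2 fold changes of 0.21 to 0.33. As ratios of mean FPKM these rises ran from 1.17-fold in Dnajc14 to 1.30-fold in Dnaja4. That of Dnajc14 was near the smallest rise among genes with over 100 reads. Among 15 alternative settings Dnajc18 was fitted and did not pass in 6, and Dnajc27 in 3. Neither was in the fit that asked for a mean of at least 5 FPKM. Dnaja4, Dnajb5 and Dnajc14 each lost their call when 1 library or another was left out.

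Among the J-domain genes that fell, Dnajc6 (auxilin), which with HSP70 strips the clathrin coat from vesicles, changed most. It stood at 3.94, 3.82 and 4.36 FPKM in syn-HSCT and at 1.65, 1.79 and 1.37 FPKM in allo-HSCT. Every allo-HSCT library was below all of syn-HSCT. The fall was 2.52-fold (limma log2 fold change -0.95 with SE 0.0886, adjusted p = 8.68e-06). Dnajc25 fell 1.30-fold from 5.76 ± 0.180 to 4.43 ± 0.171 FPKM. Dnajc12, a partner of the aromatic amino acid hydroxylases, was the 1 tested gene that did not pass, at 2.27, 3.47 and 2.90 FPKM in syn-HSCT and 3.12, 1.84 and 1.53 FPKM in allo-HSCT (limma log2 fold change -0.32 with SE 0.175, adjusted p = 0.104). Its groups overlapped through allo-HSCT replicate 1, and without that library it passed as lower. Dnajb3 had at most 4 reads in a library and none in 2 allo-HSCT libraries, and was not tested.

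Few members of the remaining families were in the table. Cct6a, a subunit of the CCT ring that folds actin and tubulin, stood at 124, 133 and 131 FPKM in syn-HSCT and at 108, 84.0 and 87.7 FPKM in allo-HSCT (limma log2 fold change -0.48 with SE 0.0998, adjusted p = 0.00148). Its groups did not overlap, and allo-HSCT replicate 1 was again the nearest to syn-HSCT. Cct6b, its testis relative, was listed at 0.305 FPKM or less. Bag5, an exchange factor of HSP70, rose 1.20-fold from 10.2 ± 0.538 to 12.3 ± 0.320 FPKM (limma log2 fold change 0.25 with SE 0.0741, adjusted p = 0.0104). The small heat shock proteins, which hold unfolded chains without ATP, were scarce in both groups. Hspb6 (HSP20) was the 1 tested, at 1.86, 1.51 and 1.56 FPKM in syn-HSCT and 1.96, 2.69 and 2.16 FPKM in allo-HSCT (limma log2 fold change 0.30 with SE 0.0997, adjusted p = 0.0151), a difference between neighbouring ranges on 47 to 89 reads, and it did not pass when replicate 2 of either group was left out. Hspb1 and Hspb8 stayed at or below 0.740 FPKM in every library. Hspbap1, a protein that binds the small heat shock protein HSP27, rose 1.33-fold from 1.86 ± 0.187 to 2.48 ± 0.0786 FPKM.

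By level, the chaperone genes divided as follows, with no test made between the ranges. Of the 10 tested genes with a mean of at least 50 FPKM over all libraries, 9 fell and Dnajc15 rose, where 53.8% of all 647 genes at that level were lower. Of the 10 between 10 and 50 FPKM, 4 fell and 6 rose, and of the 20 below 10 FPKM, 10 fell, 9 rose and 1 did not pass. In the genes of the whole table the lower share was 42.1% and 46.4% in these ranges.

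Genes of the same pathways whose symbols fall outside the families above were followed in 6 lists with 97 symbols, of which 40 were in the table. Of 39 tested, 31 fell and 8 rose (median log2 fold change -0.42), where 45.8% of all tested genes were lower and 47.9% higher. The counts of the single lists below stand against the same shares. Of 26 symbols for ER folding and oxidation 12 were in the table, and all 12 fell. Erp29, a lumenal relative of the disulphide isomerases, stood at 177, 176 and 179.9 FPKM in syn-HSCT and at 74.1, 69.1 and 76.1 FPKM in allo-HSCT, a fall of 2.43-fold (limma log2 fold change -1.27, adjusted p = 3.37e-07). The groups were far apart and each was tight. P4hb, which encodes the founding disulphide isomerase, fell 1.62-fold from 221 ± 10.6 to 137 ± 6.86 FPKM. The lectin chaperone genes Calr and Canx, partners of Pdia3, fell 1.32-fold and 1.47-fold, to 404 ± 18.4 and 80.5 ± 6.74 FPKM. Hyou1, an HSP110-like exchange factor of the ER, fell 1.38-fold from 45.0 ± 0.970 to 32.6 ± 2.65 FPKM.

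In the list of the unfolded protein response and ER-associated degradation, 10 of 27 symbols were in the table. Of the 9 tested genes 6 fell and 3 rose. The stress sensor gene Ern1 fell 1.65-fold from 9.91 ± 0.680 to 6.00 ± 0.213 FPKM. Transcription factor genes of the response fell too, Atf4 1.46-fold from 419 ± 27.0 to 286 ± 6.67 FPKM and Xbp1 1.33-fold from 81.1 ± 1.62 to 61.1 ± 3.19 FPKM. The 3 that rose, Asns, Trib3 and Derl3, had log2 fold changes of 0.21 to 0.32, and Asns did not pass with the replicate block or without any single library other than allo-HSCT replicate 2. Derl3 is part of the retrotranslocation machinery. Also lower in this list were Ddit3, Atf6b and Atf5, with log2 fold changes of -0.58, -0.42 and -0.35.

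Of 21 cochaperone symbols of HSP70 and HSP90, 11 were in the table, of which 8 fell and 3 rose. Ptges3 (p23), which stabilises the closed form of HSP90, stood at 81.2, 88.2 and 95.6 FPKM in syn-HSCT and at 45.5, 43.9 and 44.2 FPKM in allo-HSCT, a fall of 1.98-fold (limma log2 fold change -0.97, adjusted p = 3.72e-06). All allo-HSCT libraries lay at close to the same level, below all of syn-HSCT. Unc45a, a chaperone of myosin, rose 1.40-fold from 42.4 ± 4.32 to 59.3 ± 6.91 FPKM. Cdc37l1 rose less, with a log2 fold change of 0.20, and did not pass with the length trend removed, with the replicate block or without any single library other than allo-HSCT replicate 1. Of the 9 symbols in the chaperonin and prefoldin list only Pfdn4 and Vbp1 were in the table, and both fell. Of 10 mitochondrial symbols 3 were in the table. The protease genes Htra2 (2.09-fold) and Clpp fell and Afg3l2 rose 1.35-fold. Of 4 heat shock factor symbols the table held Hsf2 and Hsf4, both at low levels. Hsf2 fell from 2.56 ± 0.229 to 1.69 ± 0.208 FPKM and Hsf4 rose from 1.12 ± 0.297 to 2.12 ± 0.245 FPKM.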

How the data were processed

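RNA of splenic CD3+ T cells was measured in 3 syn-HSCT and 3 allo-HSCT libraries. Per the labels' protocols, cells were isolated by kit from spleen suspensions, and rRNA-depleted total RNA was made into libraries with NEB reagents. The submitters' processing notes name limma, with no version or role. Aligner, counting tool, strand setting, annotation and build were not given in the sources used here.

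Per gene and library, the authors deposited 1 value in an unnamed unit. The deposited values were treated as FPKM, because 1 length per gene and a whole-number total per library turned the values of all 8468 genes into whole reads, with a largest deviation of 2.61e-05. These reads hold 42.15% to 45.50% of each library, and whether they are single reads or pairs is not known. They give the depth of each gene.

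The test set was the genes reaching 1 FPKM in 3 libraries. Their log2(FPKM + 1) values entered limma (3.58.1, under R 4.3.3) with an intensity trend and no covariate, and p was adjusted by the Benjamini-Hochberg method over the whole set, with a threshold of 0.05. On this scale low genes show less change than in FPKM, whereas folds are ratios of mean FPKM. The fit was tested on simulated data, and 15 alternatives were run. The rule for full values takes, in each family, up to 3 genes past the threshold with the largest change and the gene with the highest level, then tested genes that did not pass and the pair of near-identical copies. Of the pathway lists it takes the 3 largest changes each way and Hyou1, Xbp1, Atf4, Calr and Canx. P4hb, Ern1, Clpp, Hsf2 and other genes given more briefly were chosen after their values were seen. Compartments were assigned from general knowledge. Members and lists were chosen with earlier results of these data known. Reads shared by paralogs, overlapping or antisense genes could not be separated. The values of 1 pathway gene are not reported here.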

Additional observations from a re-analysis of the deposited data

How the results depend on the processing

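The 40 tested genes were refitted under 15 alternatives, and none changed direction in any that held it. For 33 the call was the same throughout. Dnajc18, Dnajc27, Dnajb5, Dnajc14, Hspb6 and Dnaja4, all small rises, lost it when single libraries were left out, and Dnajc18 also with the length trend removed or no filter. Dnajc12 passed as lower with sample quality weights, with the replicate block and without allo-HSCT replicate 1, which moved the lower count of genes with no assigned compartment from 0 to 1. The causes were not tested. A minimum mean of 5 FPKM tests fewer genes. It left 9 chaperone genes higher, 5 of them in the cytosol and nucleus, 2 in the ER and 1 unassigned, with 5 DNAJC and 1 DNAJB genes higher, 0 DNAJB and 1 FKBP gene lower, 4 pathway genes higher and 1604 genes of the whole table lower. With no filter, Hspa12b also passed as lower (1 unassigned gene) and Hspa12a (1 HSP70 family gene) and Cct6b as higher. Of the pathway genes, 31 lower and 8 higher, 26 remained lower and 7 higher with the length trend removed, where Vbp1, Atf5, Creld2, Clpp and Cdc37l1 did not pass and Ero1b could not be fitted. Leaving out 1 library gave 6 to 7 of them higher and 31 lower, with Cdc37l1, Asns or both lost, and 12 to 15 chaperone genes higher and 23 to 24 lower. The DNAJC genes called higher then numbered 5 to 8, with 5 without syn-HSCT replicate 2, and the unassigned genes called lower 0 to 1. limma-voom on the recovered reads, chosen after seeing the data, changed no call.

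Same-numbered libraries of the 2 groups had correlated deviations of -0.0217, -0.202 and 0.077, so that the numbers are not taken as pairs. With the replicate block 16 chaperone genes were higher and 24 lower, and 6 pathway genes were higher (without Cdc37l1 and Asns) and 31 lower. Depth limits the 9 untested genes, which had at most 34 reads in any library.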
